A study of Mus musculus with 48 samples.

Results

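The courses described here come from 12 RNA-seq libraries of mouse hypothalamus, out of 48 in the study, that were made late in the experiment from mice kept under noise of 85 dBA at 0.9 atmospheres. They were chosen by their labels alone. There were 6 libraries from mice under hind limb unloading, in which the tail is held up so that the hind limbs carry no weight, and 6 from free-moving mice, with 1 library of each kind at each of the title numbers 1, 5, 9, 13, 17 and 21. The comparison set was 12 late libraries from mice kept at 10 dBA and normal pressure, again 6 unloaded and 6 free moving, called late quiet here. The labels give all 24 late libraries as hypothalamus of three-month-old C57BL/6 mice, while the text on the design gives two-month-old C57BL/6N males. Each library was made from total RNA of a pool of 3 mice. Noise and low pressure were always applied together and cannot be told apart. Nothing says that the pools of 1 series came from separate cohorts, so no p-value here covers a spread between cohorts. No series had replicate pools at a title number, so the spread used is that of single pools around the fitted curves. It also holds any departure from the fitted shape and, where both series share a curve, any difference in course between them.

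No label gives a unit for the title number. It was read as a position on a cycle of 24 units, which is an assumption, and where lights went on or off was not given. For each gene a cosine with a period of 24 units was fitted to both series together, on log2(RPKM + 0.5), where RPKM is reads scaled to gene length and to the size of the library. The amplitude is the distance from mean to peak on that log2 scale, the peak is the title number at which the fitted curve is highest, and a gene was called when its adjusted p, over all tested genes, was below 0.05. Depth was recovered from the steps between low RPKM values as 35.0 to 41.8 M reads per noise library, and no 2 of these 12 libraries were identical.

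The mammalian clock is a feedback loop in which BMAL1 (gene Arntl) and CLOCK switch on the Per and Cry genes, whose proteins then switch BMAL1 and CLOCK off. The nuclear receptors REV-ERB and ROR repress and activate Arntl in a coupled loop, and factors such as DBP pass the rhythm on to output genes. The hypothalamus holds the suprachiasmatic nucleus, the master clock of the mammalian brain, and it also governs the daily release of glucocorticoid hormone, which acts back on brain cells through its own set of responsive genes.

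In the noise libraries 18 of 13685 tested genes were called, a share of 0.132%, by limma. They held the clock genes Dbp and Per2 and 6 genes known to respond to glucocorticoids, Fkbp5, Sgk1, Tsc22d3, Zbtb16, Mfsd2a and Plin4. They also held the heat shock chaperones Hspa1a, Hspa1b and Dnajb1, and Fabp7, a fatty acid carrier of astrocytes and neural progenitors. The other 6 were Adipor2, Fam107a, Hif3a, Klf15, Sfrp5 and Slc2a1, which are named because they were called and not by the rule for named genes. Of the 18, 17 peaked between 22 and 6 on the cycle, where 75.1% of all tested genes peaked, and Fabp7 peaked on the opposite side at 15.3. Of all genes with an unadjusted p below 0.05, 62.2% peaked between 22 and 2 and 28.6% between 2 and 6. Amplitudes of the called genes ran from 0.48 to 1.31, so that the fitted peak was 1.93 to 6.14 times the fitted trough.

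Promoter windows of 5 genes are shown, picked because known control motifs could be read in them. Fabp7, Sgk1 and Klf15 were called, whereas Ciart and Per1 were not (limma, adjusted p = 0.116 each). The windows of Dbp and Plin4, which were called as well, held 0 of the motifs searched and are not shown. The windows run from 250 bases before to 50 after a transcription start, 5′ to 3′ on the gene's strand, from RefSeq on GRCm38.p6, and 16 of the 18 called genes and 18 of the 21 clock and clock output genes had such a window. The letters searched on both strands were the E-box CACGTG bound by BMAL1 and CLOCK, the D-box TTATGNAA bound by DBP, the REV-ERB and ROR element TAGGTCA, and the core of the glucocorticoid response element, a spaced inverted repeat bound by that receptor. Motifs stand in capitals, and no motifs overlap in these windows.
Fabp7 (chr10:57784673-57784972, plus strand, TAGGTCA on the reverse strand): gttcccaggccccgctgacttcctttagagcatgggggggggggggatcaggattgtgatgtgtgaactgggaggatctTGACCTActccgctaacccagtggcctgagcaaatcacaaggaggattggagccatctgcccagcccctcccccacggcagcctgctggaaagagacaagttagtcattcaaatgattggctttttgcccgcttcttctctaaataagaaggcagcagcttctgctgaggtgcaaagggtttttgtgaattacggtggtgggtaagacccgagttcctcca
Sgk1 (chr10:21993640-21993939, plus strand, 1 of its start sites, E-box and glucocorticoid core): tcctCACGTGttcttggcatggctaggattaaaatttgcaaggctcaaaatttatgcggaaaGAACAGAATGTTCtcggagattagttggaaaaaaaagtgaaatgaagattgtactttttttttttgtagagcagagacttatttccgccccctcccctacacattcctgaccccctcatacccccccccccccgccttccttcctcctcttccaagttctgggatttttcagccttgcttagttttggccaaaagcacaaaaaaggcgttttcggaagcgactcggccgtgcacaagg
Klf15 (chr6:90462326-90462625, plus strand, 3 E-boxes): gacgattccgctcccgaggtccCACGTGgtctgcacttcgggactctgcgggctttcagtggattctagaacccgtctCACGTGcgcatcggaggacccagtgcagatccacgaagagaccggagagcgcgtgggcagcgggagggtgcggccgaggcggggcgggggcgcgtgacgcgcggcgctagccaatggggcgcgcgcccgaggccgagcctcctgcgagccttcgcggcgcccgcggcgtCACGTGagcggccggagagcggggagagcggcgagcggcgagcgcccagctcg
Ciart (chr3:95882179-95882478, minus strand, 3 E-boxes): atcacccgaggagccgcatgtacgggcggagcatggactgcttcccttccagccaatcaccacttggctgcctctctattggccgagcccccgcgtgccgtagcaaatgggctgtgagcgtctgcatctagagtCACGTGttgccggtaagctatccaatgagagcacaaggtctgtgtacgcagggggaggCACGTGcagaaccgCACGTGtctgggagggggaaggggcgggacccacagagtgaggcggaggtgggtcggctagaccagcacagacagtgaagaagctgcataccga
Per1 (chr11:69098699-69098998, plus strand, 1 of its start sites, E-box and D-box): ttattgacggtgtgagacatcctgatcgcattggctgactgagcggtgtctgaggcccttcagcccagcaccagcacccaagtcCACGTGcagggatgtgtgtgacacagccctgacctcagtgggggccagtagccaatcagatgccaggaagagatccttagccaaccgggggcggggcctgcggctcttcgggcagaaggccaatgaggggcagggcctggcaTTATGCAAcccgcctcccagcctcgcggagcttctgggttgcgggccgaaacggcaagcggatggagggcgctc

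Counting from 0 at the start site, the Fabp7 element began at -171, and the E-box and glucocorticoid core of Sgk1 began at -246 and -188. Among all 32851 mouse windows, 7.15% held the E-box, 3.39% the D-box, 2.61% the REV-ERB and ROR element and 0.475% the glucocorticoid core. A gene can have several windows, and counted by gene with a match in any window these shares were 8.09, 3.99, 2.97 and 0.537%. Among the called genes with a window, 3 of 16 held an E-box (Fkbp5, Klf15 and Sgk1), 2 the glucocorticoid core (Fam107a and Sgk1), 1 the REV-ERB and ROR element (Fabp7) and 0 the D-box. Among the 18 clock and output genes with a window, 5 held an E-box (Bhlhe41, Ciart, Cry1, Per1 and Tef), 2 the D-box (Per1 and Per3), 2 the REV-ERB and ROR element (Arntl and Nfil3) and 0 the glucocorticoid core. The heat shock element and the cAMP response element TGACGTCA were searched as well and lay in 0.603 and 1.79% of all windows, and in 0 of these 16 genes. The heat shock element was searched only as 1 fixed string of repeated units, all of which had to match. The windows of Hspa1a and Hspa1b held its first units but not the last. The count of 0 thus holds for the full string and does not show that these windows lack looser forms of that element. A match of letters is a description of these windows and was not tested against the courses.

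The libraries differed widely in the share of RPKM held by the 13 genes of the mitochondrial genome, which encode subunits of the respiratory chain and of ATP synthase. At numbers 1, 5, 9, 13, 17 and 21 the share was 31.0, 10.5, 46.9, 50.0, 47.4 and 16.0% in unloaded mice under noise. In free-moving mice under noise it was 32.6, 15.1, 25.9, 34.1, 38.8 and 23.4%. The share averaged 33.6% ± 17.2 in unloaded and 28.3% ± 8.55 in free-moving mice under noise, against 14.03% ± 1.32 in unloaded and 11.5% ± 1.68 in free-moving mice in the late quiet libraries (SD, n = 6 each). All 12 noise libraries except the unloaded ones at 5 and 21 and the free-moving one at 5 lay above the highest late quiet library, at 16.6%.

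**Figure D1:**
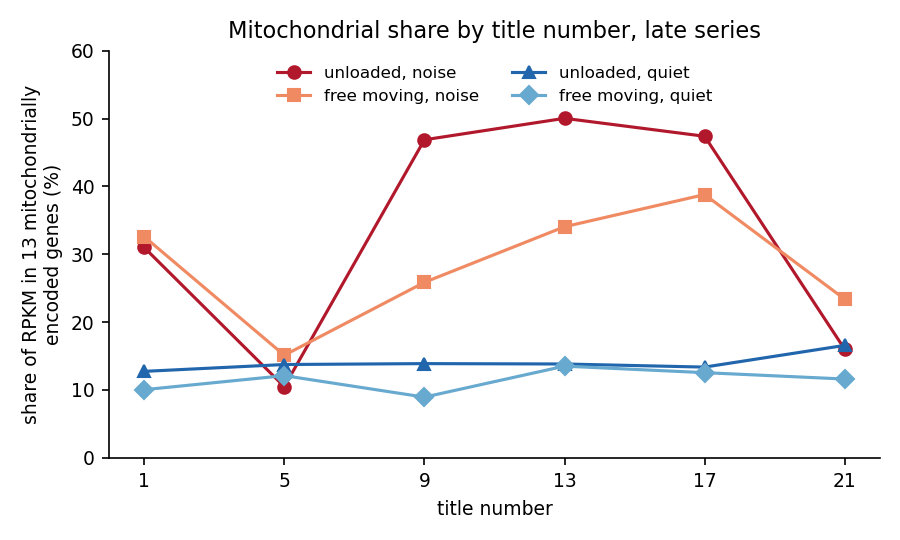
Share of RPKM held by the 13 mitochondrially encoded genes (percent) in each library against title number, for the noise and the late quiet series. The noise libraries reach 50.0% and are low at 5, whereas the late quiet libraries stay between 8.95 and 16.6%.

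A cosine of the share on the log2 odds scale had an amplitude of 0.88 ± 0.36 (SE) with its peak at 14.5 ± 1.56 and its trough at 2.53 (exact permutation of title numbers within series, p = 0.115, n = 12 libraries). With each title number left out in turn, the amplitude ran from 0.55 without number 5 to 1.503 without number 1. The exact permutation p of these fits ran from 0.00347 without number 1 to 0.311 without number 17. RPKM is relative to all reads of a library, so the values of other genes depend on this share by construction. The median gene moved along a cosine of amplitude 0.18 with its peak at 1.45. Quantile normalization gives every library the same distribution of values, so it takes out a common course by construction, and that amplitude was 0.01 with it. The share of genes that peaked between 22 and 6 was 75.1% as deposited, 67.2% after rescaling without mitochondrial genes, 45.8% with the share in the model and 45.4% after quantile normalization. As deposited, most genes thus peaked in that window. Fewer cells of a type and less RNA per cell cannot be told apart in such bulk samples.

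**Figure D2:**
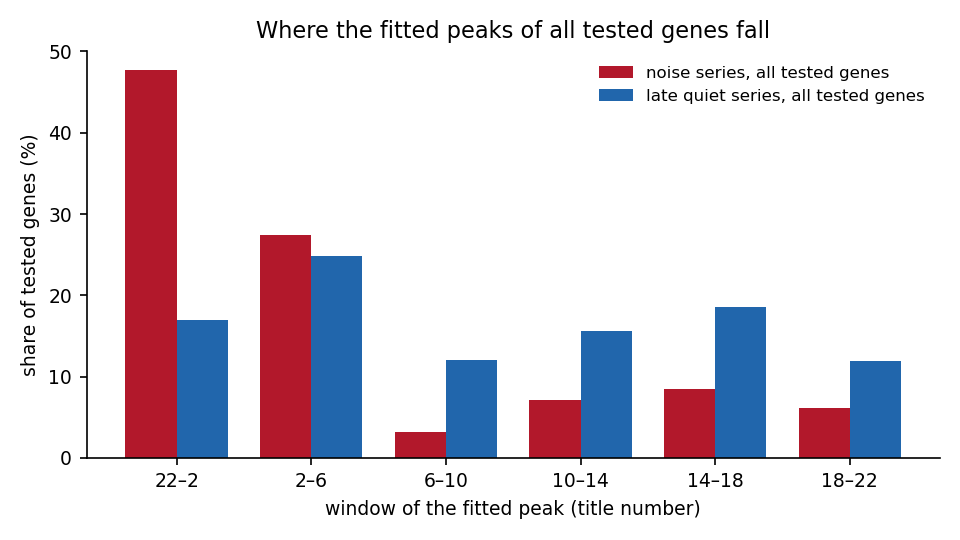
Share of all 13685 tested genes (percent) whose fitted peak falls in each window of 4 title-number units, in the noise and the late quiet series. In the noise series 47.7% of genes peak between 22 and 2 and 27.4% between 2 and 6, against 17.02% and 24.8% in the late quiet series.

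Fabp7 (ENSMUSG00000019874.11, chromosome 10, 57784881 to 57788450, plus strand, GRCm38) had the smallest p of all genes. In order of title number it had 14.8, 15.8, 31.1, 60.1, 58.8 and 32.1 RPKM in unloaded mice under noise. In free-moving mice under noise it had 27.8, 16.4, 38.1, 74.7, 73.6 and 41.7 RPKM. Both series were highest at 13 and 17 and lowest at 1 or 5, so the highest values fell in libraries with a high mitochondrial share, where most other genes were low. The amplitude was 1.07 ± 0.08 (SE, n = 12) and the peak 15.3 ± 0.28 (limma, adjusted p = 4.0e-05). With the mitochondrial share in the model the amplitude was 1.00 (adjusted p = 0.000228), and Fabp7 was called in all 18 fits that left out a library or a title number. In the late quiet libraries it peaked at 14.6 with an amplitude of 0.74, and the difference between the courses under noise and in quiet was not called (adjusted p = 0.144). Its late quiet values in order of title number were 12.8, 18.8, 36.7, 41.95, 31.98 and 26.6 RPKM in unloaded and 13.6, 15.1, 17.3, 36.3, 37.3 and 24.2 RPKM in free-moving mice, again lowest at 1. Of 11 astrocyte markers 0 were called under noise, and their summed level ran from 1026 to 1223 RPKM in unloaded and from 1060 to 1147 RPKM in free-moving mice. That of 10 ependymal and tanycyte markers ran from 112 to 146 RPKM in unloaded and from 89.4 to 152 RPKM in free-moving mice under noise, with the highest sum of each series at 9. Gene by gene, 7 of these 10 had a fitted peak between 10 and 18, against 2132 of 13685 tested genes, and 0 were called. With the mitochondrial share in the model 5 of the 10 did, against 3487 of 13685. Whether the content of such cells had a part in the course of Fabp7 was not tested.

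**Figure D3:**
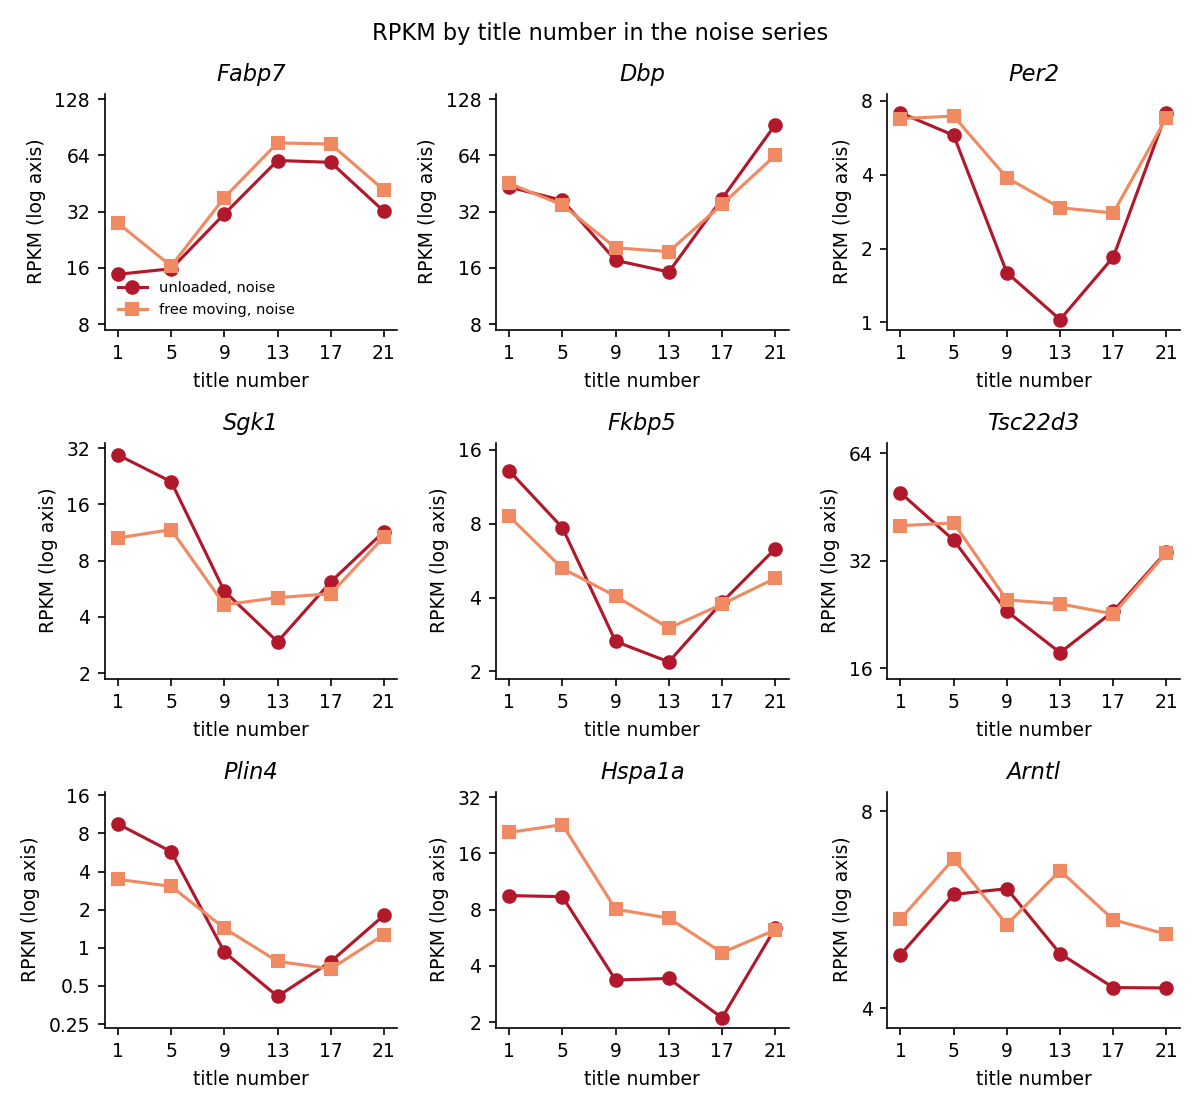
RPKM (log axis) of 9 genes in each noise library against title number, for unloaded and free-moving mice. Fabp7 is highest at 13 and 17, Dbp at 21, Sgk1 and Fkbp5 at 1 or 5, and Arntl, which was not called, stays between 4.29 and 6.76 RPKM.

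Among the output factors of the clock, Dbp (ENSMUSG00000059824.12, chromosome 7, 45705088 to 45710203, plus strand), a transcription factor that binds D-boxes, was called. Its values in order of title number were 43.3, 36.8, 17.6, 15.2, 37.5 and 93.3 RPKM in unloaded mice under noise. In free-moving mice under noise they were 45.3, 34.7, 20.5, 19.6, 35.0 and 63.9 RPKM. The lowest value fell at 13 and the highest at 21 in both series. The amplitude was 0.97 ± 0.11 and the peak 22.5 ± 0.44 (limma, adjusted p = 0.0101). Its relatives Tef and Hlf, which bind the same motif, had fitted peaks at 1.02 and 0.12 with amplitudes of 0.50 and 0.36, and Nfil3, a repressor at D-boxes, had its peak at 6.91 with an amplitude of 0.24, but none of these 3 was called (adjusted p = 0.116, 0.116 and 0.188).

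Among the 8 clock repressors 1 was called, Per2 (ENSMUSG00000055866.9, chromosome 1, 91415982 to 91459324, minus strand), whose protein inhibits BMAL1 and CLOCK. In order of title number it had 7.15, 5.79, 1.60, 1.03, 1.85 and 7.16 RPKM in unloaded mice under noise. In free-moving mice under noise it had 6.78, 6.93, 3.89, 2.93, 2.79 and 6.83 RPKM. The values at 21, 1 and 5 were above those at 9, 13 and 17 in both series, and the low values were deeper in unloaded mice. The amplitude was 1.00 ± 0.13 with a peak at 0.99 ± 0.50 (limma, adjusted p = 0.0164). The other 7 repressors, Per1, Per3, Cry1, Cry2, Ciart, Bhlhe40 and Bhlhe41, had amplitudes from 0.35 to 0.68 and adjusted p from 0.0890 to 0.116. All 8 had an unadjusted p below 0.05, against 33.4% of all tested genes, and the median amplitude of the 8 was 0.46, against 0.22 over all tested genes.

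Ciart, a repressor that acts on the BMAL1 and CLOCK complex, had the earliest peak of the 8, at 21.4 ± 0.79, and Cry1, the cryptochrome that follows the Per genes, had the latest, at 2.57 ± 0.93. Per3 stood at 0.10, Bhlhe41 at 0.57, Bhlhe40 at 0.58, Per1 at 0.71 and Cry2 at 1.69. The errors of these 5 peaks were 0.68 to 1.12 units, so that the order of Per3, Bhlhe41, Bhlhe40 and Per1 is within error. Cry2 was likewise within error of Per1 and of Cry1.

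Of the nuclear receptors of the coupled loop, Nr1d1 and Nr1d2, which encode REV-ERB alpha and beta, had amplitudes of 0.61 and 0.53 and peaks at 21.7 ± 0.70 and 22.9 ± 0.69, and neither was called (limma, adjusted p = 0.106 and 0.0938). Nr1d1 had 14.7, 14.1, 7.10, 8.46, 16.4 and 25.6 RPKM in unloaded and 11.8, 13.5, 9.82, 8.92, 15.4 and 20.5 RPKM in free-moving mice under noise, with the highest value at 21 in both. With the mitochondrial share in the model Nr1d1 and Per3 were called and Dbp, Fabp7, Per2 and Tsc22d3 were called again, which made 6 genes in all. The ROR genes Rora and Rorb had amplitudes of 0.24 and 0.15, and neither was called.

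The activators Arntl, Clock, Npas2 and Arntl2 showed the smallest amplitudes of the clock lists, from 0.13 to 0.21, with 0 of 4 called and 0 of 4 at an unadjusted p below 0.05. Arntl had 4.83, 5.97, 6.09, 4.85, 4.30 and 4.29 RPKM in unloaded and 5.47, 6.76, 5.37, 6.49, 5.46 and 5.19 RPKM in free-moving mice under noise. Its fitted peak was at 7.45 ± 1.69 (limma, adjusted p = 0.226), and the 2 series shared no clear high point. Of 7 kinases and ligases that act on clock proteins 0 were called, with amplitudes from 0.22 to 0.42. All 7 peaks lay between 22 and 6, where 75.1% of all tested genes peaked.

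Glucocorticoid-responsive genes made up the largest group among the calls, with 6 of 15 tested members. This list and its choice drew on earlier results of these data, so the count is a description. Their median amplitude was 0.47, against 0.22 over all tested genes, and 14 of the 15 peaked between 22 and 6, where 75.1% of all genes peaked. Under quantile normalization 3 of the 15 were called, after rescaling without mitochondrial genes 4, and with the mitochondrial share in the model 1, which was Tsc22d3. In these settings the median amplitude of the list was 0.33, 0.44 and 0.54, against 0.15, 0.19 and 0.11 over all tested genes. The fit with the share called 6 genes in all. In it 12 of the 15 had an unadjusted p below 0.05, against 1138 of 13685 tested genes, and all 15 peaked between 22 and 6, against 45.8%.

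Sgk1 (ENSMUSG00000019970.15, chromosome 10, 21882184 to 21999903, plus strand), a kinase that regulates ion channels, had 29.4, 21.2, 5.50, 2.94, 6.16 and 11.5 RPKM in unloaded mice under noise. In free-moving mice under noise it had 10.6, 11.7, 4.65, 5.07, 5.32 and 10.7 RPKM. The highest values fell at 1 in unloaded and at 5 in free-moving mice, and the unloaded series had the wider range. The amplitude was 1.10 ± 0.15 with a peak at 1.33 ± 0.51 (limma, adjusted p = 0.0171).

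Fkbp5, a co-chaperone that dampens the glucocorticoid receptor, had 13.2, 7.71, 2.65, 2.19, 3.83 and 6.32 RPKM in unloaded and 8.57, 5.26, 4.06, 3.00, 3.76 and 4.79 RPKM in free-moving mice under noise. It was highest at 1 and lowest at 13 in both series, with an amplitude of 0.84 ± 0.12 and a peak at 1.02 ± 0.54 (limma, adjusted p = 0.0241). Tsc22d3, which encodes the glucocorticoid-induced leucine zipper, had 49.6, 36.5, 23.1, 17.7, 23.1 and 33.9 RPKM in unloaded and 40.1, 40.8, 24.8, 24.2, 22.7 and 33.7 RPKM in free-moving mice under noise. Its amplitude was 0.57 ± 0.07, its peak 1.49 ± 0.47 and its adjusted p 0.0131 by limma.

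Plin4, a coat protein of lipid droplets, had the largest amplitude of all tested genes, 1.31 ± 0.16, with a peak at 2.43 ± 0.48 (limma, adjusted p = 0.0131). It had 9.51, 5.74, 0.92, 0.41, 0.78 and 1.804 RPKM in unloaded and 3.47, 3.06, 1.43, 0.78, 0.68 and 1.27 RPKM in free-moving mice under noise. Zbtb16, a transcriptional repressor, had an amplitude of 1.10 ± 0.17 at levels of 0.07 to 3.80 RPKM in unloaded and 0.15 to 1.88 RPKM in free-moving mice under noise, and Mfsd2a, the lipid transporter of brain endothelium, an amplitude of 0.73 ± 0.11. Plin4 and Mfsd2a also stood on the list of lipid binding and droplet genes, where 3 of 7 were called, the third being Fabp7, which peaked on the other side of the cycle.

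Of 17 heat shock chaperones 3 were called, Hspa1a, Hspa1b and Dnajb1, with peaks at 3.10, 3.07 and 2.93 and amplitudes of 1.00, 1.03 and 0.73. Hspa1a encodes the inducible HSP70. It had 9.52, 9.39, 3.36, 3.43, 2.11 and 6.37 RPKM in unloaded and 20.7, 22.8, 8.05, 7.21, 4.71 and 6.23 RPKM in free-moving mice under noise (limma, adjusted p = 0.0241). The values at 1 and 5 were the highest of each series. Hspa1a and Hspa1b are near-identical neighbours, so reads of the pair could have been split between them and their 2 courses are not independent. Under quantile normalization 1 of the 3 was called, Dnajb1, and after rescaling without mitochondrial genes and with the mitochondrial share in the model 0 were.

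The other 6 called genes peaked between 0.98 and 3.69. Klf15, a transcription factor of metabolic control, had an amplitude of 0.62 ± 0.09 and a peak at 1.37 ± 0.55, and Slc2a1, the glucose transporter GLUT1, an amplitude of 0.48 ± 0.07 and a peak at 1.60 ± 0.59. Sfrp5, a secreted inhibitor of Wnt signals, peaked at 0.98, Adipor2, an adiponectin receptor, at 1.42, Hif3a, a hypoxia-inducible factor subunit, at 1.60 and Fam107a at 3.69. The last genes inside the threshold were Fam107a and Zbtb16 with adjusted p of 0.0431 and 0.0452, and the first outside it were Batf3 and Fzd2 with 0.0622 and 0.0675.

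The count of calls was not stable. Leaving out number 1 raised it to 6433 and leaving out the free-moving library at 1 raised it to 6510, whereas leaving out number 5 or 13 left 2, number 17 left 1, and the unloaded library at 13 left 1. With title number as a block 2 were left, Dbp and Fabp7. Over the 18 fits that left out a title number or a library, Fabp7 was called in 18, Dbp in 15, Tsc22d3 in 13, Plin4 and Sfrp5 in 12, Per2 and Sgk1 in 11, and Hspa1a in 10. Fkbp5 and Hspa1b were called in 9, Dnajb1, Hif3a and Mfsd2a in 6, Adipor2 and Zbtb16 in 5, Klf15 in 4, and Fam107a and Slc2a1 in 3.

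Neuropeptides of the hypothalamus were not called under noise. Avp, which encodes vasopressin, had 3195, 3028, 5961, 6249, 5324 and 3376 RPKM in unloaded and 3757, 1509, 4301, 3201, 2797 and 2102 RPKM in free-moving mice under noise. Its fitted peak was at 12.8 (limma, adjusted p = 0.178) as deposited, at 6.57 after quantile normalization and at 10.1 with the mitochondrial share in the model. The fitted peaks of Oxt (oxytocin), Pomc, Agrp and Npy, which encode peptides of fluid balance and feeding, lay between 13.5 and 14.7, close to that of the mitochondrial share, and those of Pmch and Hcrt, which encode the arousal and feeding peptides of the lateral hypothalamus, lay at 0.95 and 1.14. With that share in the model the adjusted p of these 7 genes was at least 0.687. Vip and Crh had amplitudes of 0.17 and 0.14. In the late quiet libraries Avp, Oxt, Pomc, Agrp, Vip, Hcrt and Pmch were called by limma. Npy and Crh were not, and 5.43% of all tested genes were. The quiet peaks of Avp, Oxt, Pomc and Agrp were at 0.69, 1.17, 0.17 and 2.23. None of these peptide genes passed the test of the difference between noise and quiet (limma, lowest adjusted p = 0.0964, for Pomc).

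Of 17 immediate early genes, which respond within minutes to neuronal activity, 0 were called. An unadjusted p below 0.05 was held by 11 of them, against 33.4% of all tested genes. Fos had the smallest adjusted p of them, 0.0890, with an amplitude of 0.55 ± 0.10 and a peak at 3.18 ± 0.67. All 13 mitochondrially encoded genes peaked between 14.1 and 14.9 with amplitudes from 0.76 to 1.28. Among these 0 were called and 12 had an unadjusted p below 0.05, against the same 33.4%. Of 36 cytosolic ribosomal protein genes 33 had a fitted peak between 10 and 18 and 2 between 22 and 6, with 0 called and a median amplitude of 0.19. After rescaling without mitochondrial genes these counts were 34 and 2. Of the 13685 tested genes 2132 peaked between 10 and 18 as deposited and 2957 after rescaling.

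Whether unloading changed the courses under noise was asked by testing series against both cosine terms. No gene was called (limma, 0 of 13685, 0%, lowest adjusted p = 0.730), and 624 genes had an unadjusted p below 0.05, a share of 4.56%. That number was 3799 with title number as a block and ran from 198 without number 9 to 2637 without the unloaded library at 1, while 0 genes were called in each of these fits. A test that misses its threshold does not show that the courses are alike, since each series had 1 library at each number. The fitted amplitude was larger in unloaded than in free-moving mice for 16 of the 18 called genes, where it was larger for 82.9% of all tested genes, and the median amplitude over all genes was 0.32 in unloaded and 0.16 in free-moving mice.

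The fitted peaks of both series lay within 4 units of each other for all 18 called genes, as they did for 62.4% of all tested genes, but both series had gone into the call. Per2 had amplitudes of 1.33 in unloaded and 0.69 in free-moving mice, and Sgk1 1.503 in unloaded and 0.70 in free-moving mice. Fkbp5 had 1.12 in unloaded and 0.57 in free-moving mice, and Plin4 1.71 in unloaded and 0.93 in free-moving mice. Fabp7 had 1.11 in unloaded and 1.04 in free-moving mice, and Hspa1a and Hspa1b had 0.96 and 1.00 in unloaded, against 1.07 and 1.08 in free-moving mice. The smallest p of this difference among genes of at least 1 RPKM belonged to Zbtb16, Rnf26, Slc15a2, Eps8l1 and Phpt1. Rnf26 had 1.83, 2.08, 0.56, 0.21, 0.78 and 1.78 RPKM in unloaded and 1.26, 1.42, 1.30, 1.73, 1.13 and 1.22 RPKM in free-moving mice under noise. Fitted alone, the unloaded series had 3358 calls and the free-moving series 0, counts that do not test a difference. The mitochondrial share ranged more widely in unloaded than in free-moving mice under noise, and with it in the model the test of the difference called 0 genes as well.

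The last comparison asked whether the courses under noise and low pressure differed from those of the late quiet libraries, which had 743 of 13685 genes called (5.43%). Both sets called 12 genes, which is 66.7% of the calls under noise and 1.62% of those in quiet. All 12 peaked later under noise, by a median of 1.59 units, and the share of all tested genes that did so is not given here. The median amplitude over all tested genes was 0.22 under noise and 0.08 in quiet, and 81.7% of genes had the larger amplitude under noise. The median under noise was 0.19 after rescaling without mitochondrial genes, 0.15 under quantile normalization and 0.11 with the mitochondrial share modelled, while in quiet it was 0.08 under all 3 settings. The amplitude was larger under noise for 78.7% of genes after rescaling, for 73.8% after quantile normalization and for 63.0% with the share in the model. The test of the difference in course called 1 gene, Sgk1 (1 of 13685, 0.00731%), while 3814 genes (27.9%) had an unadjusted p below 0.05.

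Sgk1 peaked at 1.33 under noise and at 19.9 in quiet, a difference of 5.43 ± 0.61 units (limma, adjusted p = 0.0170). Its late quiet values in order of title number were 13.6, 11.1, 8.03, 13.5, 22.9 and 40.6 RPKM in unloaded and 20.8, 14.7, 10.5, 16.4, 32.6 and 35.2 RPKM in free-moving mice. The highest values thus fell at 1 and 5 under noise and at 21 in quiet. The call was also made after quantile normalization and after rescaling without mitochondrial genes. It was not made with the mitochondrial share in the model, with the block, or in the fits without number 5, 9, 13 or 17.

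**Figure D4:**
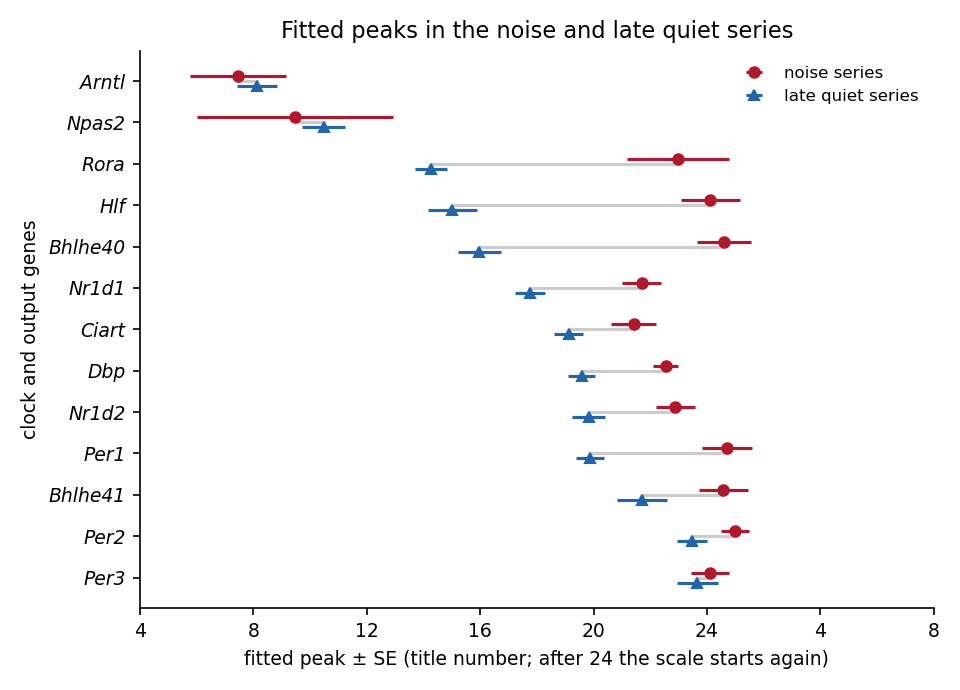
Fitted peak (title number, ± SE) of the clock and output genes called in the late quiet series, under noise and in the late quiet series. Of 13 genes 11 have the later peak under noise, and the matching share of all tested genes is not given.

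Of the clock and output genes 13 were called in quiet, and 11 of the 13 had a later fitted peak under noise, by a median of 2.96 units over the 13. The share of all tested genes with a later peak under noise is not given here, so this count has no background. Of all tested genes 47.7% peaked between 22 and 2 under noise, against 17.02% in quiet. Dbp peaked at 22.5 under noise and 19.6 in quiet, and Per2 at 0.99 under noise and 23.5 in quiet. Per1 peaked at 0.71 under noise and 19.9 in quiet, Nr1d1 at 21.7 under noise and 17.8 in quiet, and Nr1d2 at 22.9 under noise and 19.8 in quiet. The differences were 2.96 ± 0.64 for Dbp, 1.53 ± 0.73 for Per2, 4.85 ± 1.00 for Per1, 3.94 ± 0.87 for Nr1d1 and 3.06 ± 0.90 for Nr1d2. Over the 13 genes they ran from -1.01 to 9.11, and the largest were 9.11 ± 1.35 for Hlf, 8.71 ± 1.89 for Rora and 8.62 ± 1.22 for Bhlhe40. None of the 13 passed the test of the difference (limma, lowest adjusted p = 0.0870), while 10 had an unadjusted p below 0.05. Arntl and Npas2, both activators, were the exceptions and peaked at 7.45 and 9.46 under noise, against 8.12 and 10.5 in quiet. The later peak was seen in 12 of 13 genes after quantile normalization, in 13 after rescaling and in 11 with the mitochondrial share in the model, with medians of 2.46, 2.80 and 2.15 units.

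In quiet, Dbp had 45.4, 36.3, 28.4, 44.1, 82.5 and 73.9 RPKM in unloaded and 52.2, 29.6, 40.1, 35.6, 56.7 and 62.7 RPKM in free-moving mice. Its values at 1, 9, 13 and 17 were thus higher in quiet than under noise in both kinds of mouse, and those at 5 and 21 were lower. Per2 in quiet had 7.31, 5.51, 4.32, 4.56, 6.53 and 7.99 RPKM in unloaded and 7.32, 7.30, 4.90, 3.78, 5.25 and 7.20 RPKM in free-moving mice. At 17 Per2 stood at 1.85 RPKM in unloaded mice under noise, against 6.53 RPKM in unloaded mice in quiet, and at 2.79 RPKM in free-moving mice under noise, against 5.25 RPKM in free-moving mice in quiet, while at 1 and 21 the noise and quiet values of each kind of mouse lay within 1 RPKM of each other. These RPKM were not adjusted for the mitochondrial share. In unloaded and free-moving mice that share was 47.4 and 38.8% under noise at 17, against 13.4 and 12.6% in quiet. At 1 it was 31.0 and 32.6% under noise, against 12.7 and 10.0% in quiet. Its part in these differences was not tested.

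Markers of other regions moved with the title number in quiet, and their part in these differences was not tested. The summed level of 6 thalamus markers, none at 0 in every library of a group, ran from 20.2 to 29.3 RPKM in unloaded and 20.6 to 34.7 RPKM in free-moving mice under noise, against 23.3 to 80.4 and 23.1 to 116.6 RPKM in unloaded and free-moving mice in quiet, and the list includes Rora. That of 10 choroid plexus markers stayed at or below 35.2 RPKM under noise, against 283 and 394 RPKM at 17 in unloaded and free-moving mice in quiet. Rora peaked at 23.0 under noise and 14.3 in quiet. Markers that define the hypothalamus were present in all noise libraries, with Nkx2-1 at 6.12 to 11.1 RPKM, Otp at 9.13 to 21.98 RPKM and Hcrt at 153 to 440 RPKM, while Sim1 lay at 0.28 to 1.23 RPKM.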

How the data were processed

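Total RNA of hypothalamus was sequenced in 48 libraries, each a pool of 3 mice, in 8 series of 6. The deposited table holds RPKM values for 21558 genes, which the authors made from reads handled with CASAVA 1.8 and HISAT, per the submitters' processing notes. Not given in the sources used here are the version of HISAT, the build and the gene annotation. Series were taken from the labels, and 0 columns were left out.

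The cosine and sine of the title number over 24 units were tested together with limma 3.58.1 in R 4.3.3, on log2(RPKM + 0.5), with series as a factor and an intensity trend in the variance. There were 13685 tested genes, with a mean of at least 0.5 RPKM over all 48 libraries, and 8 residual degrees of freedom in the noise libraries. P-values were adjusted by Benjamini and Hochberg over all tested genes. Differences in course were tested as series by cosine and sine terms, with 6 residual degrees of freedom for unloaded against free moving and 16 for noise against late quiet. Errors of amplitude and peak are standard errors by the delta method. The procedure was tested on simulated data.

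Depth was estimated from the steps between low RPKM values, with GENCODE M21 lengths on GRCm38 for 21164 genes. Between 64.0 and 68.1% of values of at most 12 reads were whole within 0.02 reads, against 4.0% by chance, so no count test was run. Gene positions are from GENCODE M21, matched by symbol.

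Named are all clock and output genes, the 10 largest amplitudes among called genes of at least 1 RPKM, up to 3 called genes of each other list of 33, 10 peptide and activity genes, and the 5 smallest p of each difference, apart from results not reported here. The members and lists were chosen with earlier results of these data known. Alternatives were other pseudocounts (0.1 and 2), no filter, quantile normalization, rescaling without mitochondrial genes, the log2 odds of the mitochondrial share as a covariate, array weights, a second cosine of 12 units, title number as a random block, the spread of all 48 libraries, each series alone, and each title number or library left out. The alternatives for the late quiet libraries and for the lists, clock peaks and amplitudes were added after the data had been seen.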

Additional observations from a re-analysis of the deposited data

Results flagged for a closer look

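The course of Sgk1 differed between noise and late quiet by the test of that difference (limma, adjusted p = 0.0170). It peaked at 1.33 under noise and at 19.9 in quiet. At an adjusted p below 0.1 the same test listed 112 genes, and Sgk1 was the only one below 0.05 in the fit as reported.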

How the results depend on the processing

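The main count of 18 genes with a 24-unit course under noise was 18 and 16 with pseudocounts of 0.1 and 2 and 15 after quantile normalization, of which 9 were among the 18. It moved to 4 with no filter, 10 after rescaling without mitochondrial genes, 6 with the mitochondrial share as a covariate, 10 with a second cosine of 12 units, 8731 with array weights, 1584 with the spread of all 48 libraries, 0 in the free-moving series alone and 3358 in the unloaded series alone. With the replicate block of title number it was 2, at a consensus correlation of 0.26. In the test of unloaded against free moving the consensus correlation of that block was 0.51. The labels do not say that a number marks a shared source, and deviations of same-numbered libraries from their series means correlated from -0.28 to 0.69, with 6 of 12 libraries best correlated with their own number. Those deviations hold the common course itself. Deviations from the cosine fit correlated from -0.24 to 0.30, with 1 of 12 best with its own number. The numbers were not taken to pair the libraries, but independence of same-numbered libraries was not established. Leaving out title numbers gave 1 to 6433 calls, and leaving out libraries 1 to 6510. The test of unloaded against free moving called 0 genes throughout, also with each title number or library left out, except 2461 with array weights. The test of noise against quiet called 1 gene as reported and 0 with no filter, with the covariate and with the replicate block, 7474 with array weights, and 0 to 5379 with title numbers left out. The late quiet count of 743 was 987 with the replicate block, 772 after quantile normalization and 728 with the covariate, and 58 to 709 with title numbers left out. The amplitude of the mitochondrial share ran from 0.55 to 1.503 with title numbers left out, where exact permutation p ran from 0.00347 to 0.311, and from 0.66 to 1.15 with libraries left out, where it ran from 0.0430 to 0.228. The causes were not tested.

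Of 1620 refitted values of named genes 1240 kept direction and side of the threshold, 257 were no longer called, 113 became called and 10 turned to the other side of the cycle. Those 10 were genes without a call. Their amplitudes were 0.0582 for Arntl2, 0.0513 for Rorb and 0.29 for Avp after quantile normalization, 0.102 for Clock, 0.0440 for Rorb, 0.185 for Agrp and 0.0925 for Npy with the covariate, 0.146 for Rorb without number 17 (0.106 to 0.340 over all its fits with a number or library left out), and 0.14 for Arntl2 and 0.12 for Rnf26 in the free-moving series alone.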

Other observations

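Of the 33 lists, 28 held no called gene under noise by limma. Rbm3 and Cirbp, RNA-binding proteins induced by cold, had fitted peaks at 22.2 ± 0.75 and 21.5 ± 0.80 with amplitudes of 0.40 and 0.34 under noise, against peaks at 21.03 and 20.2 with amplitudes of 0.40 and 0.36 in quiet. They were not called under noise (adjusted p = 0.116 each) and were called in quiet (adjusted p = 0.000101 and 0.00221). Of 17 genes of cholesterol synthesis and uptake 16 had a fitted peak between 22 and 6 under noise as deposited, 12 after rescaling without mitochondrial genes and 9 under quantile normalization or with the mitochondrial share modelled, with 0 called. Of all tested genes 75.1% peaked in that window as deposited, 67.2% after rescaling, 45.4% under quantile normalization and 45.8% with the share modelled. Hmx3, a transcription factor of hypothalamic neurons, had an amplitude of 0.87 ± 0.19 at a mean of 1.65 RPKM and was not called (adjusted p = 0.116). Of 14 transcription factors of the hypothalamus 13 peaked between 22 and 6 under noise as deposited, 12 after rescaling and 9 under each of the other 2 settings, and Rax, which marks tanycytes, peaked at 14.9.

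Cell type markers were not called either. Pan-neuronal markers had 10 of 10 fitted peaks between 22 and 6 as deposited and after quantile normalization, 9 after rescaling without mitochondrial genes and 6 with the mitochondrial share in the model. The shares of all tested genes in that window were 75.1, 45.4, 67.2 and 45.8% under these settings in the same order. The summed level of 7 blood cell markers ran from 1248 to 3458 RPKM in unloaded and 1133 to 2304 RPKM in free-moving mice under noise, against 807 to 2634 RPKM in unloaded and 628 to 1038 RPKM in free-moving mice in quiet.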
